A study of Mus musculus with 6 samples.

Results

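The RNA of Mef2d, Tfcp2l1, Zfp503 and L3mbtl1, which encode nuclear proteins that steer cell differentiation, was followed in mouse liver after gavage with jujube extract. These genes are 4 of the 122 to which a table deposited by the authors gives a feature of the array, out of 45220 features in all. The genes were selected on measured values of the same mice: the authors' table lists genes they call deregulated, with ratios of treated mice to the control average, and the set was put together with results of these data known. Each difference between the groups is therefore given as a description, without a p-value, and lends no support to a response of these genes.

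Livers came from 6 male mice, 8 weeks old at day 0, of a strain that the sources used here do not state. Controls (n = 3) received water by gavage on each of 20 days, and the treated mice (n = 3) received 500 µl a day of an aqueous extract of Ziziphus jujuba at 6 mg/mL. All mice had standard chow and water, and the tissue was the central core of the left lobe. Cy3-labelled cRNA of each mouse was hybridised to a 1-colour Agilent array, so every value below is 1 mouse and the number of arrays limits its precision.

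MEF2D is a MADS-box transcription factor that binds A/T-rich DNA. It is held in check by class IIa histone deacetylases until calcium and kinase signals release it, and it is best known from muscle and neurons. TFCP2L1 belongs to the CP2 family of DNA-binding factors and is known for its part in the kidney's collecting ducts and in the naive state of mouse embryonic stem cells. ZFP503 is a zinc finger protein of the NET family, known as a transcriptional repressor in the developing striatum. L3MBTL1 is not a DNA-sequence reader: its MBT repeats hold methylated lysines of histones and compact chromatin, and its Drosophila homologue is a tumour suppressor of the larval brain. In the authors' table Mef2d, Tfcp2l1 and Zfp503 stand under cell differentiation, a heading with 8 genes, and L3mbtl1 under cell division and cell proliferation, with 14.

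After normalization between arrays the 4 genes had higher means in extract livers, as did 113 of the 122 genes of the authors' table. The shared direction thus carries the selection, and the windows before the transcription starts of these genes are shown as a description. They are the 250 bases before the start that RefSeq gives on GRCm38.p6, each read 5′ to 3′ on the gene's strand, with capitals marking the GC box (GGGCGG), the CCAAT box (CCAAT) and the TATA box (TATAAA) on either strand. Mef2d lies on the plus strand, and its window is chr3:88142122-88142371. Tfcp2l1 is also on the plus strand, with the window chr1:118627695-118627944. Zfp503 lies on the minus strand at chr14:21989602-21989851, and L3mbtl1 on the plus strand at chr2:162943215-162943464.

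Mef2d: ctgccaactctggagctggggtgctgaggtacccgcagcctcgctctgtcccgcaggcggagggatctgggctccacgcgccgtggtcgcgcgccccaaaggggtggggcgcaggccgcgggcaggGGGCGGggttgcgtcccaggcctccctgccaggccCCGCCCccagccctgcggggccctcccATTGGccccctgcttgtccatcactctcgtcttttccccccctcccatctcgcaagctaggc
Tfcp2l1: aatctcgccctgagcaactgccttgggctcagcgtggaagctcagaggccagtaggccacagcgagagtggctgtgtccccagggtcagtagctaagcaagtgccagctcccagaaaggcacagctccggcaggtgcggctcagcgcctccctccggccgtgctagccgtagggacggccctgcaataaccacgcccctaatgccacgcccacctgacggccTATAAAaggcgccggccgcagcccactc
Zfp503: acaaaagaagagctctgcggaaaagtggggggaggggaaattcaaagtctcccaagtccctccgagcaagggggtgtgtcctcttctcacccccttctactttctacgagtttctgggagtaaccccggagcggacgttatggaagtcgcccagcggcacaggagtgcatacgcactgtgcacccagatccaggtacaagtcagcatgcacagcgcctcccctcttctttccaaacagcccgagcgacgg
L3mbtl1: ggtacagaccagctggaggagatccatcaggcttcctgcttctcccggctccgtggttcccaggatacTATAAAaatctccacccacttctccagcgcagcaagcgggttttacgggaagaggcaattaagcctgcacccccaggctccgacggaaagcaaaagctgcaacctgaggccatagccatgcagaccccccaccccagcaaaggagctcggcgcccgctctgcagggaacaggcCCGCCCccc

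The windows of Mef2d and L3mbtl1 lie inside the annotated spans of their genes, which begin at 88141941 on chromosome 3 and 162942333 on chromosome 2. The Tfcp2l1 gene begins at 118627923, so the last bases of its window fall within it. The Zfp503 window lies wholly outside its gene, which ends at 21989601. All 4 windows were richer in G and C than the median window, with 73.2% in Mef2d, 65.2% in Tfcp2l1, 61.2% in L3mbtl1 and 57.2% in Zfp503 against 52.4% over 32851 RefSeq windows of the same length. Positions are those of a motif's leftmost base, with -1 for the base next to the start. Mef2d has 2 GC boxes, at -124 and -89, and a CCAAT box at -62. Tfcp2l1 has a TATA box at -28, and L3mbtl1 has one at -182 and a GC box at -9. None of these 3 motifs was found in the Zfp503 window. Among all windows, 32.7% hold a GC box, 33.8% a CCAAT box and 12.4% this TATA box.

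The consensus site of the MEF2 family was found in none of the 4 windows and is present in 2.92% of all. The consensus of the CP2 family was found in the windows of Mef2d, Zfp503 and L3mbtl1, not in that of Tfcp2l1 itself, and 48.0% of all windows hold it. In Mef2d 1 of its 2 matches overlaps a GC box. No motif of those searched was shared by all 4 windows. A match is a run of letters and was not tested as a binding site, and a missing match says only that these letters are not in the window.

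Mef2d had the widest difference of the 4 genes. Its deposited intensities were 2940, 2986 and 1793 in control mice 1, 2 and 3 and 3429, 6523 and 7373 in extract mice 1, 2 and 3. The groups did not overlap, but extract mouse 1 lay only 443 units above the highest control, and control mouse 3 lay well below the other controls. The means were 2573 ± 676 (SD, n = 3) in controls and 5775 ± 2076 (SD, n = 3) with the extract, a ratio of 2.24.

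After quantile normalization, which gives all arrays the same distribution of intensities, Mef2d stood at 11.38 ± 0.63 (SD, n = 3) in controls and 12.38 ± 0.32 (SD, n = 3) in extract livers on the log2 scale. The difference was 1.00 (SE 0.38), or 2.00-fold. Without control mouse 3 it was 0.64, close to the 0.60 of L3mbtl1 and 0.57 of Zfp503 with that mouse left out. Without extract mouse 1 the difference of Mef2d was 1.17. No other array, left out in turn, moved the Mef2d value as far as control mouse 3 did.

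Zfp503, the NET family repressor, gave the tightest controls of the 4 genes. Control mice 1, 2 and 3 had intensities of 857, 812 and 915, whereas extract mice 1, 2 and 3 had 1182, 1930 and 1416. Each extract mouse lay above all controls, by at least 267 units, and extract mouse 2 was the highest. Means were 861 ± 51.6 (SD, n = 3) and 1509 ± 383 (SD, n = 3), a ratio of 1.75. On the normalized log2 scale the levels were 9.84 ± 0.12 (SD, n = 3) and 10.47 ± 0.14 (SD, n = 3), which is a difference of 0.63 (SE 0.15), or 1.55-fold.

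Tfcp2l1, the CP2 family factor, had the smallest difference of the 4 genes. Control mice 1, 2 and 3 had intensities of 831, 1029 and 938, and extract mice 1, 2 and 3 had 1115, 1665 and 1463. Extract mouse 1 exceeded the highest control by 86 units, so the groups were just apart. Means were 933 ± 99.1 (SD, n = 3) and 1414 ± 278 (SD, n = 3), a ratio of 1.52. Normalization brought the 3 extract mice to 10.38, 10.39 and 10.38 on the log2 scale, beside 9.93, 10.21 and 9.75 in the controls. The normalized difference was 0.42 (SE 0.17), or 1.34-fold.

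L3mbtl1, the chromatin reader, was measured at 653, 903 and 824 in control mice and at 1214, 1378 and 1675 in extract mice 1, 2 and 3. No extract mouse came closer than 311 units to the highest control. Means were 793 ± 128 (SD, n = 3) and 1422 ± 234 (SD, n = 3), a ratio of 1.79. On the normalized log2 scale the levels were 9.71 ± 0.25 (SD, n = 3) and 10.40 ± 0.25 (SD, n = 3), with a difference of 0.68 (SE 0.21), or 1.60-fold. The gap between the groups was 0.11 on that scale.

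**Figure D1:**
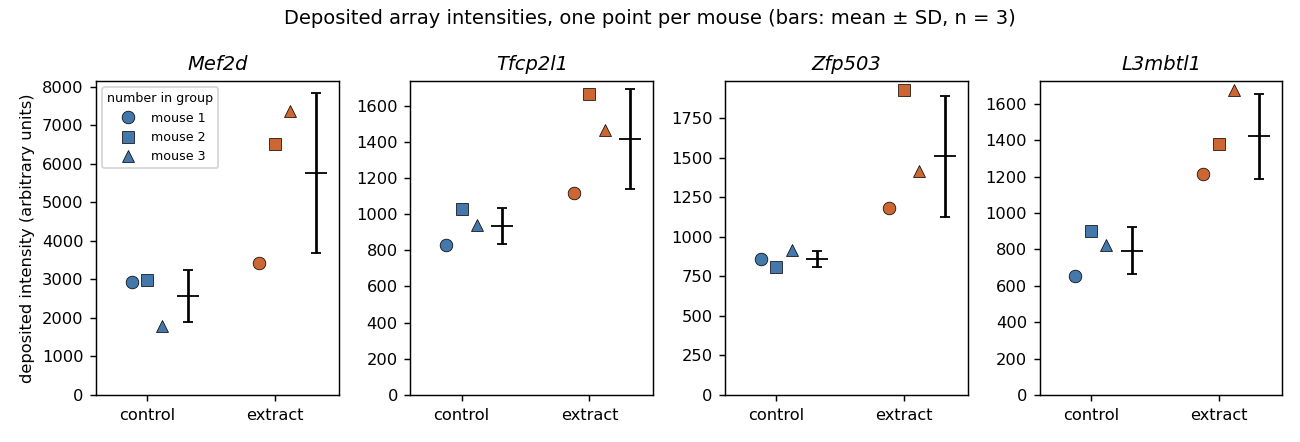
Deposited intensity (arbitrary units, linear axis from 0) of Mef2d, Tfcp2l1, Zfp503 and L3mbtl1 in each of 3 control and 3 extract mice, with the mean and SD of each group beside the points. All extract points lie above all control points in each panel, and extract mouse 1 is the lowest extract point in all 4 panels.

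The arrays themselves differed in brightness in a way that touches these values. Features above 100 on all 6 arrays, called bright, numbered 9434, and all 4 genes are among them. Control arrays 1, 2 and 3 had a median bright intensity of 444, 457 and 574, compared with 439, 648.5 and 569 for extract arrays 1, 2 and 3. Extract mouse 1, the lowest extract mouse for all 4 genes before scaling, had the lowest bright median, though not the lowest number of features above 100 (11263, against 10268 and 10308 on control arrays 1 and 2). After scaling extract mouse 1 was the lowest for Mef2d and, among nearly equal values, for Tfcp2l1. That array also stood apart, correlating over bright features at no more than 0.959 with any other. Without it the differences were 1.17 for Mef2d, 0.43 for Tfcp2l1, 0.63 for Zfp503 and 0.63 for L3mbtl1. In all 4 genes both remaining extract mice lay above all controls, which the separation with all arrays all but ensures.

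Without any scaling the differences were larger for every gene, at 1.13 for Mef2d, 0.59 for Tfcp2l1, 0.78 for Zfp503 and 0.84 for L3mbtl1, and the median bright feature was then higher by 0.18 in the extract group. Relative to that median they were 0.95, 0.41, 0.60 and 0.66 in the same order. When every array was instead centred on the 75th percentile of all its features, Tfcp2l1 turned to -0.41, Zfp503 to -0.21 and L3mbtl1 to -0.15, while Mef2d stayed above 0 at 0.14. That percentile was 41 for control mice 1 and 2, 102 for control mouse 3 and between 99 and 123 for the extract mice, and after centring the median bright feature stood at -0.81. Relative to it the values were 0.95 for Mef2d, 0.41 for Tfcp2l1, 0.60 for Zfp503 and 0.66 for L3mbtl1. Centring multiplies all values of an array by the same factor, so these had to equal those without scaling. For the same reason the order of the 4 genes, with Mef2d highest and Tfcp2l1 lowest, could not differ between these settings. Nothing is read from either.

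**Figure D2:**
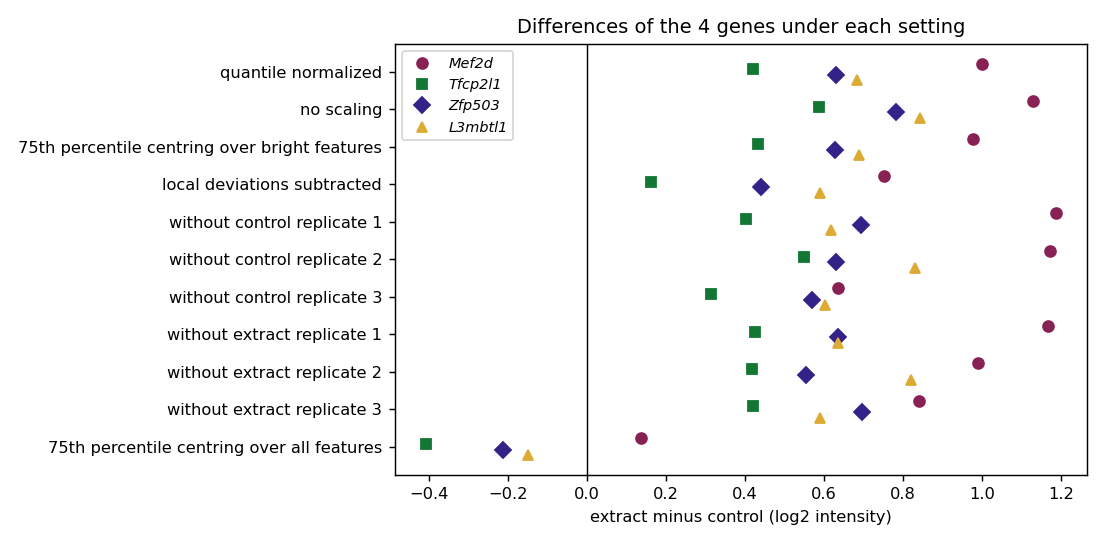
Difference between extract and control means (log2 intensity, horizontal axis) of the 4 genes under each setting (vertical axis). All points lie above 0 except those of Tfcp2l1, Zfp503 and L3mbtl1 with centring on the 75th percentile of all features, where they are -0.41, -0.21 and -0.15.

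All 4 genes had every extract mouse above every control mouse, both after quantile normalization and without scaling. The same held for 9.54% of bright features after quantile normalization and for 14.1% without scaling. A value at least 1.5-fold over the control mean in every extract mouse was reached by none of the 4 after normalization (background 0.223%) and by L3mbtl1 alone without scaling (background 0.784%). For L3mbtl1 the unscaled ratios were 1.53, 1.74 and 2.11 in extract mice 1, 2 and 3. In extract mouse 1 the others fell short of 1.5, with 1.33 for Mef2d, 1.37 for Zfp503 and 1.20 for Tfcp2l1. As the genes were selected on this contrast, nothing is read from these counts. Across the whole array the limma fit called 0% of features at an adjusted p of 0.05 (0 of 45220) and 5.11% at an unadjusted p of 0.05 (2313 of 45220).

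Around these features on the array, values differed between the groups in the same direction. Array coordinates were worked out from the feature numbers on the assumption of rows of 85 features. Mef2d then sits in row 271 and Tfcp2l1 in row 283, in columns 70 and 74. Zfp503 is in row 332, column 42, and L3mbtl1 in row 68, column 71. The median deviation of the features around Mef2d, in a neighbourhood of 11 by 11, was higher in extract than in control arrays by 0.25 on the log2 scale. Around Tfcp2l1 it was higher by 0.26, around Zfp503 by 0.19 and around L3mbtl1 by 0.093. For bright features in general this local difference ran from -0.27 at the 5th percentile to 0.26 at the 95th, so the surroundings of Mef2d and Tfcp2l1 lay near the upper end.

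Subtracting the local deviation from each value left differences of 0.75 for Mef2d, 0.59 for L3mbtl1, 0.44 for Zfp503 and 0.16 for Tfcp2l1. Mef2d and L3mbtl1 then still had all extract mice above all controls, as 10.6% of bright features did. Tfcp2l1 lost the separation, with 10.21, 10.28 and 10.29 in the extract mice against 10.36 in control mouse 2. Zfp503 lost it through extract mouse 3 alone, at 9.99 against 10.06 in control mouse 2. The part of the neighbourhood in the values was not tested beyond this subtraction.

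**Figure D3:**
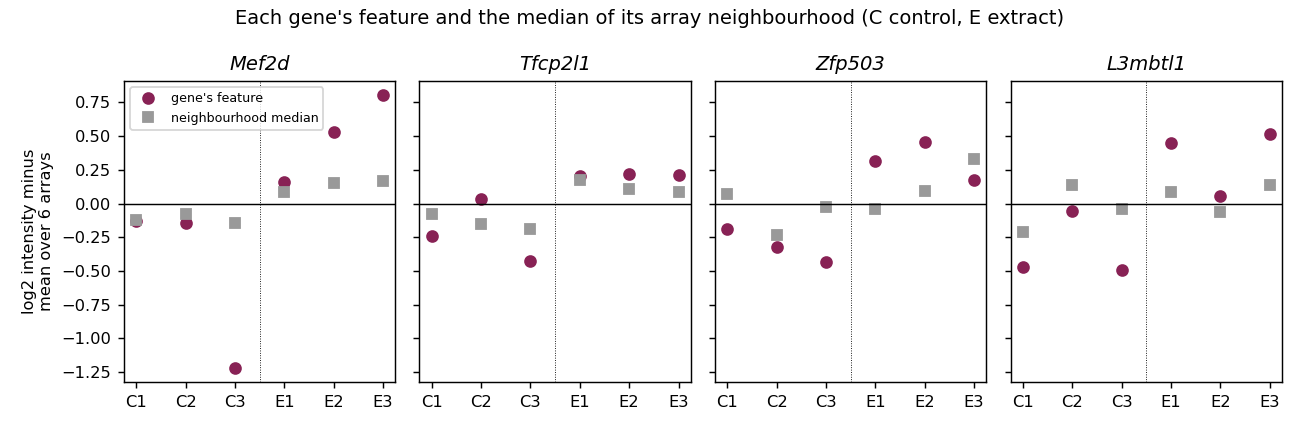
Normalized log2 intensity of each gene's feature (circles) and the median of the features around it on the array (squares), each as a deviation from its mean over the 6 arrays, for control arrays C1 to C3 and extract arrays E1 to E3. The squares around Tfcp2l1 and Mef2d lie below 0 on all control arrays and above 0 on all extract arrays.

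Spread within the groups differed among the 4 genes. The authors' table gives ratios per mouse, so these spreads are a description too. The pooled SD of Mef2d within groups was 0.50 on the normalized log2 scale, and 94.8% of bright features had a smaller one. That value rested on control mouse 3, which deviated from the control mean by -0.72, beside 0.37 and 0.35 in the other controls. Without that mouse, a setting chosen after seeing the data, the pooled SD of Mef2d was 0.27, with 62.6% of bright features smaller and a bright median of 0.23. With all arrays, pooled SDs were 0.25 for L3mbtl1, 0.16 for Tfcp2l1 and 0.13 for Zfp503, beside a median of 0.22 over bright features. A smaller SD was found for 60.1%, 25.1% and 12.8% of bright features in that order. In Tfcp2l1 the SD was 0.23 in the controls and 0.0046 in the extract mice.

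The profiles of the 4 genes over the arrays were compared by the root mean square difference between values centred per gene. Tfcp2l1 and Zfp503 were closest to each other, at 0.18 (log2), followed by Tfcp2l1 and L3mbtl1 at 0.20 and by Zfp503 and L3mbtl1 at 0.27. Mef2d differed from the other 3 by 0.42 to 0.44. Once the group means were removed, the values were 0.15 for Tfcp2l1 with either Zfp503 or L3mbtl1 and 0.27 for Zfp503 with L3mbtl1. After normalization L3mbtl1 was lowest among extract mice in mouse 2, where Zfp503 was highest, whereas in deposited intensities L3mbtl1 was lowest in mouse 1.

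The same measure was taken against the other 118 named genes, all of which share the 6 arrays and the authors' selection. Closest to Mef2d was Msi1, which encodes the RNA-binding protein Musashi, at 0.20, against a median of 0.52 over the 118 genes. Cabs1 followed at 0.28 and Cyp20a1 at 0.31. Closest to Tfcp2l1 were Pclaf, a factor that binds the replication clamp PCNA, at 0.12, the glucose cotransporter gene Slc5a1 at 0.12 and the defensin gene Defb3 at 0.14, against a median of 0.29. Closest to Zfp503 were the olfactory receptor gene Olfr808 at 0.079, Ppnr at 0.093 and Rab25, a small GTPase of membrane recycling, at 0.098, against a median of 0.25. Closest to L3mbtl1 were the deubiquitinase gene Usp35 at 0.13, Btbd10 at 0.14 and Slc5a1 at 0.15, against a median of 0.33.

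Under the heading of cell differentiation the other 5 genes had normalized differences between 0.55 and 0.62, with a median of 0.61. The values were 0.62 for Ran, the GTPase of nuclear transport, 0.61 for Frmd4a, 0.61 for Rab25, 0.59 for Mbd5, a protein with a methyl-CpG binding domain, and 0.55 for Ranbp3l. All 5 had every extract mouse above every control, and with local deviations subtracted 2 did. Mef2d therefore stood above this range and Tfcp2l1 below it, while Zfp503, at 0.63, was next to it. The SEs of the 8 genes were between 0.15 and 0.38.

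Among the other 13 genes of cell division and cell proliferation the differences ran from 0.11 for Mcts1 to 0.94 for the kinase gene Dyrk3, with a median of 0.64, next to the 0.68 of L3mbtl1. In 8 of the 13, every extract mouse was above every control, against 9.54% of bright features. Cdk1, the kinase that drives entry into mitosis, differed by 0.70 (SE 0.19). The replication genes Gins3 and Gins4 differed by 0.57 (SE 0.27) and 0.56 (SE 0.27), with overlapping groups for Gins3. The median over all bright features was -0.010. These genes come from the same table and the same contrast, so their differences carry the same selection.

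**Figure D4:**
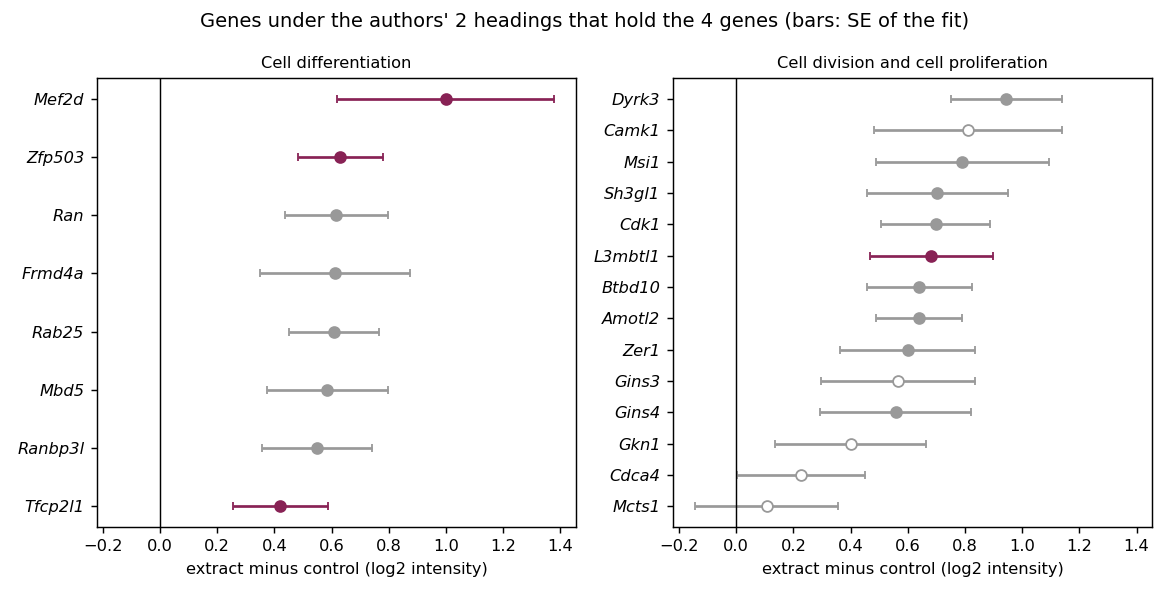
Difference between extract and control means (log2 intensity, with the SE of the fit) of the 8 genes under cell differentiation and the 14 under cell division and cell proliferation. Purple points are the 4 genes described here, and filled points mark genes with every extract mouse above every control mouse. Mef2d is the highest and Tfcp2l1 the lowest under its heading.

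Other genes of the authors' table encode proteins of transcription or chromatin, a group picked by function with results known, in which Mbd5 is counted again. Of these 10, 8 had higher and 2 lower normalized log2 means with the extract, with a median difference of 0.59. In 6 every extract mouse was above every control, as for 9.54% of bright features. The histone variant gene H2al1o differed by 0.95 (SE 0.29), the general transcription factor gene Gtf2b by 0.78 (SE 0.25), the nucleosome-binding protein gene Hmgn5 by 0.60 (SE 0.22) and Thap11, a zinc finger factor, by 0.42 (SE 0.16). The zinc finger genes Zbtb42, Zfp84 and Zfp407 differed by 0.59, 0.60 and 0.48, without separation of the groups for Zfp84 and Zfp407. The lower values were those of Zfp945 and Zfp54. Zfp945 was measured at 1545, 1056 and 1356 in control mice and at 132, 646 and 543 in extract mice, so that all extract mice lay below all controls. For Zfp54, 1 array set the direction: intensities were 2229, 2605 and 2836 in control mice and 267, 4479 and 4517 in extract mice 1, 2 and 3. Its normalized difference was -0.72 (SE 1.11), and 0.52 without extract mouse 1. Without that mouse, again chosen after seeing the data, 9 of the 10 genes had higher means, with a median of 0.50. In 8 of them both remaining extract mice lay above all controls, as in 1319 of the 9434 bright features. With fewer mice to order, that count is not like for like with the 6 above. For Zfp945 the deposited intensities of both lay below all controls.

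Genes that act with the 4 proteins could not be set beside them. Of 96 genes listed for the MEF2, CP2, NET and MBT or Polycomb families, for naive pluripotency and for liver transcription factors, none has a named feature, and they are not analysed here. Of 33 markers of liver cell types only Fcgr2b, an Fc receptor of sinusoidal endothelium, has one, so hepatocyte markers are not analysed here. Fcgr2b was measured at 139, 214 and 807 in control mice and at 44, 653 and 821 in extract mice, with overlapping groups, and its part in the values above was not tested. In whole liver tissue, fewer cells of a type and less RNA per cell cannot be told apart.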

How the data were processed

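Per the submitters' processing notes, the authors used Agilent Feature Extraction, and no version was stated. Their deposited values are intensities, 1 per feature and array, in whole numbers that reach below 0. How the authors corrected background or scaled arrays was not stated. Features were named through the authors' table, in which 111 of 122 accessions, those of the 4 genes included, matched RefSeq (GRCm38.p6) with the same symbol. The table's 3 columns of ratios per mouse were not used.

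Intensities were quantile normalized, set to at least 1 and log2 transformed. The groups were compared with limma 3.58.1 (lmFit, eBayes, two-sided, Benjamini-Hochberg over 45220 features) in R 4.3.3, which supplied the SEs, after tests on simulated data. Local deviations were medians over 11 by 11 features, the feature itself left out, using features above 100 on at least 4 arrays, with array rows of 85 features. That row length was checked on the intensities. Among lengths from 60 to 120 it gave the highest mean correlation, 0.40, between bright features that many places apart or at multiples of it.

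Members, gene lists and settings were chosen with earlier results of these data known. The naming rule took the 4 genes, the other genes under their headings, the 3 closest profiles per gene and any listed gene with a feature. Genes of transcription and chromatin were added by function.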

Additional observations from a re-analysis of the deposited data

How the results depend on the processing

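Besides the settings given above, a floor of 10 left all 4 differences as they were. It could not alter them, as all values of the 4 genes lie far above it. Centring on the 75th percentile of bright features gave 0.98 for Mef2d, 0.43 for Tfcp2l1, 0.63 for Zfp503 and 0.69 for L3mbtl1. With centring on the 75th percentile of all features Mef2d was 0.14, Tfcp2l1 -0.41, Zfp503 -0.21 and L3mbtl1 -0.15, and 0 of the 4 genes had separate groups. The median bright feature then stood at -0.81, against 0.025 with centring on bright features. Without scaling Tfcp2l1 was 0.59 and Zfp503 0.78. With local deviations subtracted they were 0.16 and 0.44, and 2 genes kept separate groups.

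Leaving out each array in turn gave 0.64 to 1.19 for Mef2d, 0.31 to 0.55 for Tfcp2l1, 0.55 to 0.70 for Zfp503 and 0.59 to 0.83 for L3mbtl1. All 4 genes kept separate groups each time, which their separation with all arrays all but ensures, so nothing is read from it. With extract mouse 1 left out and local deviations subtracted, a setting chosen after seeing the data, Mef2d was 0.94, Tfcp2l1 0.18, Zfp503 0.37 and L3mbtl1 0.58, with 2 genes separate and 1 at 1.5-fold in every extract mouse. That last count was 0 with quantile normalization, 1 without scaling and 0 or 1 when single arrays were left out, with 0 only in the fit lacking control mouse 3.

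The count of 0 features at the limma adjusted threshold became 31 without scaling, 2 with a floor of 10, 190 when extract mouse 1 was dropped, 41 when extract mouse 3 was, and 0 when any 1 of the others was. It was 0 with bright features only, with trend and robust eBayes and with the replicate block. Deviations from group means correlated at 0.043, 0.15 and 0.25 between mice with the same number and at -0.19 to 0.031 between the rest. Each of the 6 arrays correlated best with its own number, which is a hint from the data and not from the design. After quantile normalization 900 bright features had every extract mouse above every control, and 550 had every extract mouse below every control. The 900 became 1190 to 1486 over single arrays dropped, with the most without control mouse 1. They became 1467 with extract mouse 1 left out and local deviations subtracted. The 21 at 1.5-fold in every mouse became 74 without scaling, 42 under that setting and 31 to 77 over single arrays dropped, and both counts were 0 with centring on all features. With 1 mouse left out fewer mice have to be ordered, so those counts are not like for like with the 900. The cause of these changes was not tested.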
